A study of Saccharomyces cerevisiae with 11 samples.

Results

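The transcript changes described here are those of budding yeast grown for 10 h with arsenate in medium that held little phosphate. The cells were Saccharomyces cerevisiae S288C, the haploid laboratory strain of the reference genome, in a minimal medium with 100 μM phosphate and 2% sucrose at pH 5.7 and 30 °C. A culture begun from a single colony was diluted to an optical density of 0.08. The treated culture then received arsenate to 2 μM, and the control culture received 200 mM sodium chloride, as the labels state it. Taken as labelled, each ratio holds the effects of arsenate and of that salt together, and these cannot be told apart. Below, "with arsenate" means in the treated culture relative to that control. RNA of the treated cells was labelled with Cy5 and RNA of the control with Cy3, and both were hybridised to the same oligonucleotide array. The 2 arrays labelled low phosphate, 10 h were taken by that label out of 11 arrays in all. The other arrays cover 4 h and 8 h of the same treatment (2 arrays each), and a parallel series in 1 mM phosphate at 4 h, 8 h and 10 h (5 arrays, of which 1 at 10 h). Values are given as the log2 of the arsenate signal divided by the control signal, after subtracting the median gene of the array. A value of 1 is thus a 2-fold higher signal in the arsenate culture.

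Arsenate is a chemical analog of phosphate and enters yeast cells through the phosphate transporters. Inside the cell it is reduced to arsenite by Arr2, and arsenite leaves through the plasma membrane exporter Arr3 or is bound to glutathione and pumped into the vacuole by Ycf1. Glutathione is made from cysteine, so sulfate uptake and sulfur assimilation feed this defence, while the transcription factor Arr1 (also called Yap8) drives ARR2 and ARR3. Growth itself is read in yeast from genes for ribosomal proteins and for the assembly of ribosomes, which commonly rise and fall together.

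The arrays held values for 9075 and 8627 of 10807 spots, which cover 5403 and 5204 genes. Their gene medians as deposited were 0.04 and 0.08. Across 5172 genes the 2 arrays at 10 h correlated with r = 0.84, and the median absolute difference between them was 0.13. Each array at 10 h correlated with those at 8 h at r = 0.13 to 0.17 and with those at 4 h at r between -0.002 and 0.054. The arrays at 4 h and 8 h correlated at 0.37 to 0.38. By rank (Spearman) these values were 0.01 to 0.05, -0.12 to -0.08 and 0.28 to 0.31. These correlations run across genes of arrays that share a design and a dye assignment, and genes are not independent replicates. With the single array in 1 mM phosphate at 10 h, of another design, r was 0.24 and 0.25 (by rank 0.20 and 0.17). No dye swap was among these arrays, so a dye bias of a probe stays in its ratio. The labels do not say whether the 2 arrays came from separate cultures, so the p-values measure the spread between arrays, which may be technical. The direction was taken from the dyes in the labels, and the rise of the arsenate resistance genes given next is in that direction.

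Of 5207 genes tested, 2106 (40.4%) differed from 0 at 10 h at an adjusted p under 0.05 in limma, which is what "called", "rose" and "fell" refer to below. Of these, 1041 (20.0%) were higher and 1065 (20.5%) were lower with arsenate. Most changes were small: 48 called genes were at least 2-fold higher and 43 at least 2-fold lower. Without centring the arrays, 1049 were higher and 667 lower. Each array carried much of the power, since 506 genes were called higher and 549 lower without the first array at 10 h, and 535 and 576 without the second. In those fits 9.99% and 10.3% of the genes tested were higher and 10.8% and 11.1% lower. Counts of a gene list without an array are to be read against about these shares. Those without centring are to be read against 20.1% higher and 12.8% lower. For differences the shares over all genes were 21.6% higher and 24.3% lower from 8 h, and 22.0% and 20.3% from 4 h. The remaining counts of a list are to be read against 20.0% and 20.5%. A ratio of RNA pools cannot tell more RNA per cell from more cells in the state that makes it. A ratio that differs between times can reflect a change in the treated culture, in its control or in both. These cannot be told apart here. Words such as "gained", "dropped" and "dipped" in time comparisons below refer to the ratio. Lists of genes overlap in places, so their counts do not add up. None of the 12 reference genes tested was called in either direction. ACT1 (actin) had a ratio of -0.17 (adjusted p = 0.21) and TDH3, the main glyceraldehyde-3-phosphate dehydrogenase, of -0.05 (adjusted p = 0.63).

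**Figure D1:**
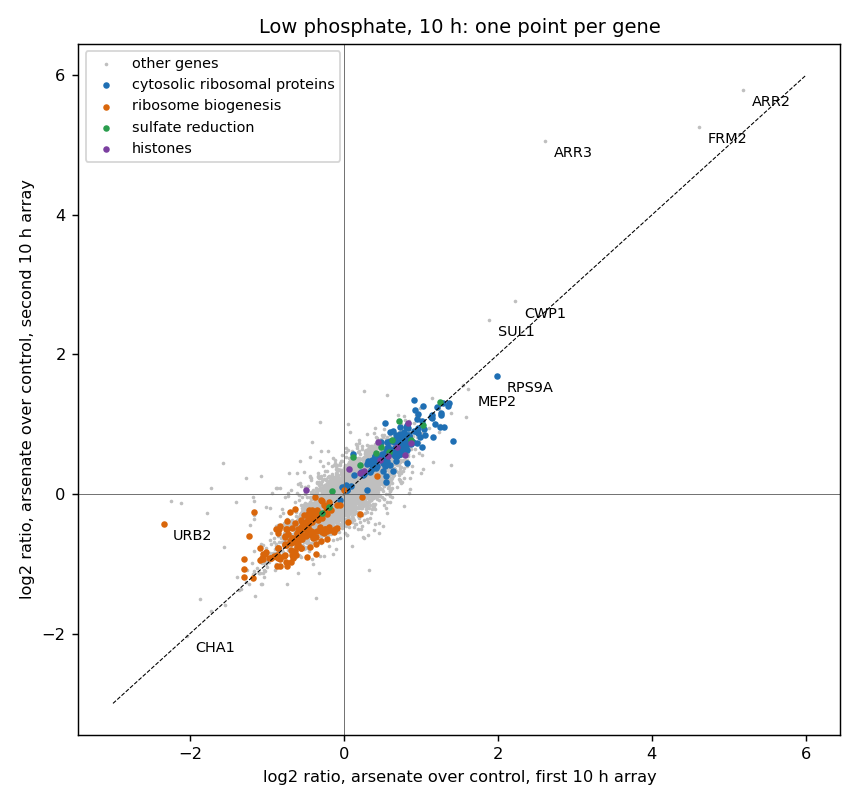
Each point is a tested gene, with 4 gene groups coloured; the axes give its centred log2 ratio of arsenate over control on the first and the second array at 10 h in low phosphate. Across all 5172 genes with a value on both arrays, tested or not, r was 0.84; ARR2 and FRM2 lie at the upper right, ARR3 off the diagonal and CHA1 at the lower left.

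The arsenate reductase and exporter genes were among the 3 most increased of all genes, with FRM2 between them. ARR2 (YPR200C), the arsenate reductase, had log2 ratios of 5.18 and 5.79, a mean of 5.49 (SE 0.14, n = 2, adjusted p = 2.09e-05), or 44.8-fold. Its neighbour ARR3 (YPR201W), the arsenite exporter, read 2.62 and 5.06, and its mean of 3.84 (SE 0.66) was a 14.3-fold rise at adjusted p = 0.0054. The 2 arrays did not agree on the size of the ARR3 response, and without the second array its adjusted p was 0.060. ARR1, which encodes the regulator of both, read 0.22 and 0.19; that small rise (mean 0.20, adjusted p = 0.043) had an adjusted p of 0.20 without the first array, 0.14 without the second and 0.092 without centring. The rise was thus large for the reductase and the exporter genes and small for that of their regulator.

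The vacuolar pump gene YCF1 read 0.10 and 0.09 (adjusted p = 0.33), and FPS1, the glycerol channel through which arsenite can pass, read -0.05 and -0.14 (adjusted p = 0.36). YAP1, the oxidative stress regulator that also acts in arsenic tolerance, read 0.13 on both arrays (adjusted p = 0.14). None of these 3 genes passed the test at 10 h. In the list of arsenic resistance genes, 4 of 9 were called higher and 1 lower. HOG1, the stress-activated kinase, was called at 0.38 (adjusted p = 0.015, but 0.14 without the first array). GTT1, a glutathione transferase, was called at -0.31 (adjusted p = 0.016, and 0.13 without the first array or 0.057 without the second). Without either array 2 of the 9 were higher and none lower.

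FRM2, a nitroreductase-like gene, was the second most increased, with 4.61 and 5.26 on the 2 arrays (mean 4.93, SE 0.35, adjusted p = 0.00043), or 30.6-fold. Its close relative HBN1 rose far less, with 0.86 and 1.02 (mean 0.94, adjusted p = 0.0009). The 2 genes also differed in time. FRM2 was lower at 10 h than at 4 h, when its mean was 6.97, and at 8 h, when it was 7.59 (adjusted p = 0.018 and 0.0055). The first difference had an adjusted p of 0.087 without the first array at 10 h, and the second was -1.39 at adjusted p = 0.080 with all arrays scaled to the same spread. HBN1 had means of -0.52 at 4 h and 0.61 at 8 h, and its ratio at 10 h was above that at 4 h by 1.45 (SE 0.13, adjusted p = 0.00071).

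ARR2 was also lower at 10 h than before. Its ratios were 7.36 and 7.24 at 4 h and 8.09 and 7.99 at 8 h, so that both values at 10 h lay below all 4 earlier ones. The difference from 8 h was -2.56 (SE 0.19, adjusted p = 0.00016) and that from 4 h was -1.82 (adjusted p = 0.0011). With all arrays scaled to the same spread the difference of ARR2 from 8 h was -1.21 (adjusted p = 0.017). For ARR3 the values were 4.05 and 5.79 at 4 h and 5.72 and 7.28 at 8 h. At each time its second array read above its first. Its differences of -2.67 from 8 h (adjusted p = 0.056) and -1.08 from 4 h (adjusted p = 0.38) did not pass the test, but the outcome depended on the setting. The difference from 8 h was called in 9 of 15 alternatives, with adjusted p from 0.00041 with the replicate number as a block to 0.25 with scaled arrays. That from 4 h was called in 1, the block, at adjusted p = 0.011, and was 0.14 in place of -1.08 without the first array at 10 h. On the single array in 1 mM phosphate at 10 h, which has no replicate and was normalised apart on another array design, ARR2 read 3.60, ARR3 2.84, FRM2 5.08 and HBN1 0.45.

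Most genes of sulfur uptake and sulfate reduction were higher at 10 h. Of 11 tested genes for sulfate and methionine permeases, 7 were called higher and none lower. Of 13 genes of sulfate reduction, 10 were higher and none lower, with medians of 0.77 and 0.58 against 0.01 for all genes tested. The counts higher were 7 and 10 without the first array and 6 and 6 without the second. The high-affinity sulfate permease SUL1 (YBR294W) rose most, with 1.89 and 2.50 on the arrays (mean 2.19, SE 0.14, adjusted p = 0.00043), or 4.58-fold. Its paralog SUL2 read 1.15 and 1.37 (mean 1.26, adjusted p = 0.00045). SUL1 was also high earlier, with means of 2.32 at 4 h and 2.09 at 8 h, and neither difference from 10 h passed the test (-0.12 and 0.10, adjusted p = 0.63 and 0.68). The 2 arrays at 10 h pulled these differences of SUL1 in opposite directions. Without the second array that from 4 h was -0.43 (adjusted p = 0.047), and without the first that from 8 h was 0.41 (adjusted p = 0.046).

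Genes for the uptake and use of organic sulfur differed in time. MMP1, which imports S-methylmethionine, read -0.01 and 0.12 at 4 h. It then reached 1.96 and 2.07 at 8 h, followed by 1.54 and 1.57 at 10 h. It was therefore near 0 at 4 h and above 1.5 on each later array, and the mean of 1.55 at 10 h (adjusted p = 0.00025) was above that at 4 h by 1.50 (adjusted p = 0.00036). MHT1, the methyltransferase that uses S-methylmethionine to make methionine, had a mean of 0.96 at 10 h (adjusted p = 0.0005) against 0.13 at 4 h, a difference of 0.83 (adjusted p = 0.002). The methionine permease MUP1 read 1.39 and 1.16 at 10 h (mean 1.28, adjusted p = 0.00045), which was below its mean of 2.02 at 8 h (adjusted p of the difference = 0.0055) and above its mean of 1.14 at 4 h by 0.14 (adjusted p = 0.45).

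Within the reduction pathway, MET3, the ATP sulfurylase of its first step, read 1.24 and 1.32 (mean 1.28, SE 0.15, adjusted p = 0.0013). MET14, the next kinase, read 1.03 and 1.00 (mean 1.01, adjusted p = 0.00043). MET16, the reductase that follows, had a mean of 0.60 (an adjusted p of 0.050 without the second array). MET10, a sulfite reductase subunit, had a mean of 0.82 (adjusted p = 0.00052), and MET17, the sulfhydrylase that brings sulfide into homocysteine, of 0.88 (adjusted p = 0.0016). Genes of each of these steps were thus higher with arsenate.

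Downstream of homocysteine the pattern was mixed. Among 14 genes of methionine and cysteine metabolism 6 were higher and 2 lower, or 3 and 1 without the first array. The methionine synthase MET6 and the S-adenosylmethionine synthetase SAM2 rose, each with a mean of 0.67 (adjusted p = 0.0014 and 0.0013). IRC7, a cysteine beta-lyase, fell by 0.53 (adjusted p = 0.0018). GSH1, the first enzyme of glutathione synthesis, read 0.51 and 0.32 and was called at a mean of 0.41 (adjusted p = 0.019), with adjusted p of 0.17 without the first array and 0.060 without the second. GSH2, the second enzyme, was called at 0.33 (adjusted p = 0.020), with 0.087 and 0.14. In the wider glutathione list, 11 of 33 genes were higher and 7 lower, but 3 and 1 without the first array and 3 and 2 without the second. Of 7 sulfur regulators 1 was higher and 1 lower, and none when either array was left out. On the single array in 1 mM phosphate SUL1 read 0.29, SUL2 0.16, MMP1 -0.20, MUP1 0.02 and MET3 0.40, beside MET17 at 0.63 and MET6 at 0.77.

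Genes for ribosomal proteins and genes for ribosome assembly had opposite signs at 10 h. Of 135 cytosolic ribosomal protein genes, 124 were higher with arsenate and none lower, with a median of 0.69 on both arrays and on their mean. Ratios were above 0 on both arrays for 133 of them. Of 150 ribosome biogenesis genes, 133 were lower and 1 higher, with a median of -0.54, and 145 were below 0 on both arrays. Beside them, 20.0% of all genes tested were called higher and 20.5% lower. Without either array the counts were lower and the directions as before: 46 of 55 small-subunit genes were higher each time, 62 or 61 of 80 large-subunit genes, and 102 or 97 biogenesis genes were lower. Without centring, 112 biogenesis genes were lower.

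**Figure D2:**
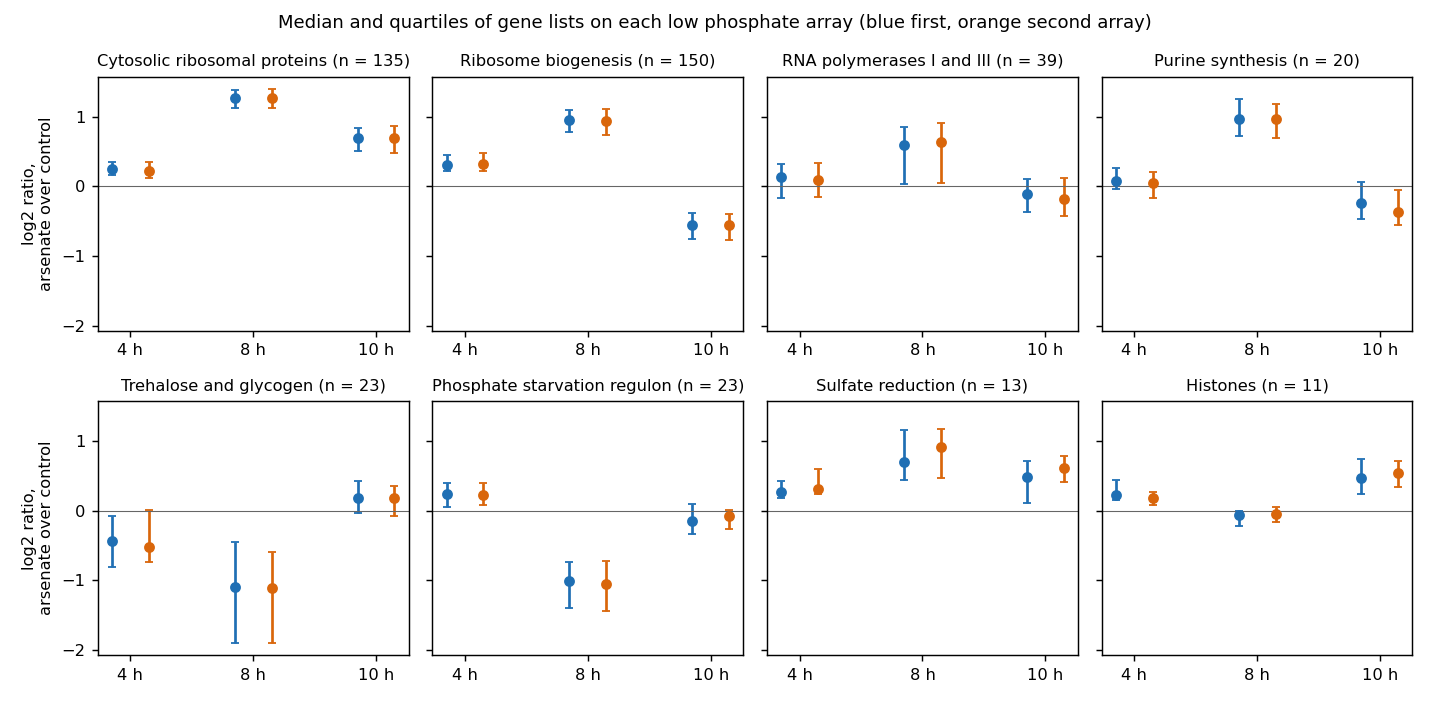
Medians of the centred log2 ratio (vertical axis) over the members of 8 gene lists on each low-phosphate array, by hours with arsenate (horizontal axis), with bars for the middle 50% of members. The median ratios of ribosomal protein and ribosome biogenesis genes are both higher at 8 h than at 4 h. They separate at 10 h, at 0.69 and -0.54.

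RPS9A, one of the gene pair for a small-subunit protein, was the most increased ribosomal protein gene, with 1.99 and 1.69 (mean 1.84, SE 0.09, adjusted p = 0.00025), or 3.58-fold. It was the exception in time as well. Its means of 0.80 at 4 h and 0.95 at 8 h lay below the value at 10 h, with a difference of 0.89 from 8 h (adjusted p = 0.0016), and it was the single ribosomal protein gene called higher at 10 h than at 8 h. RPL24A read 1.37 and 1.30 and RPL9A 1.28 and 1.31, both large-subunit genes. RPS18B (1.35 and 1.26), RPS9B (1.21 and 1.25) and RPS0B (1.27 and 1.16) were next among the small-subunit genes. Each of these had an adjusted p of 0.00043 or less.

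Many yeast ribosomal proteins have 2 nearly identical genes, whose transcripts may bind each other's probes, so differences within a pair are uncertain. Of 58 pairs in which both copies were tested, 48 had both copies higher. The copies differed by a median of 0.29, and in 13 pairs by over 0.5. The widest gap was between RPL24A at 1.34 and RPL24B at 0.40, followed by RPL14A at 0.76 and RPL14B at -0.07, and RPL9A at 1.29 and RPL9B at 0.48. The 11 members that were not called were RPL14B, RPS28A, RPP2B, RPP1A, RPS21A, RPL4A, RPL4B, RPS25B, RPL41A, RPS29B and RPS30B, named after their values were seen.

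Among the assembly genes, MAK5 (YBR142W), an RNA helicase of the large subunit's assembly, read -1.29 and -1.19 at 10 h (mean -1.24, SE 0.07, adjusted p = 0.00042) after 0.42 and 0.58 at 4 h and 1.07 and 1.09 at 8 h. All values before 10 h were above 0 and both values at 10 h were below -1, and the difference from 8 h was -2.33 (adjusted p = 5.99e-05). ROK1, a helicase of the small subunit's assembly, went the same way, with -1.29 and -1.08 at 10 h after a mean of 0.95 at 8 h. LTV1, an export factor of the small subunit, read -1.18 and -1.21, with an adjusted p of 0.053 without the second array. URB2 had the lowest mean of the list, -1.38, but its arrays gave -2.34 and -0.43, and without the first its adjusted p was 0.10. The single member called higher was UTP22 at 0.34, with an adjusted p of 0.10 without the first array.

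Over time the 2 groups of genes parted at 10 h. The median of the ribosomal protein genes was 0.25 at 4 h, 1.25 at 8 h and 0.69 at 10 h; compared with 8 h, 103 of 135 were lower and 1 higher, with a median difference of -0.56. The median of the assembly genes was 0.32 at 4 h, 0.96 at 8 h and -0.54 at 10 h. All 150 were lower at 10 h than at 8 h by the test, with a median difference of -1.52, and 140 were lower than at 4 h. For comparison, 24.3% of all genes were called lower at 10 h than at 8 h and 20.3% lower than at 4 h. On the single array in 1 mM phosphate 134 of 135 ribosomal protein genes were above 0, with a median of 0.35, and 105 of 150 assembly genes were above 0, with a median of 0.11. MAK5 read 0.23 there and RPS9A 0.04.

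The transcription machinery of the ribosome followed the assembly genes in part. Of 39 genes for RNA polymerases I and III, 14 were lower and 4 higher, or 10 and 1 without the first array and 9 and 1 without the second. RPA34 (mean -0.94), RPA43 (-0.73) and RPA190 (-0.62), subunits of the polymerase that transcribes ribosomal DNA, all fell (adjusted p at most 0.0016), while TFC6, a subunit of a polymerase III initiation factor, rose by 0.65 (adjusted p = 0.0013). Of 41 translation factor genes 12 were lower and 2 higher, and 6 and 1 without the first array. ANB1, the hypoxic copy of the gene for a translation initiation factor, read -1.27 on both arrays (SE 0.14, adjusted p = 0.0011) after a mean of 1.47 at 8 h. TEF4, an elongation factor subunit, was at -0.64 and HEF3, which resembles another elongation factor, at -0.71 (adjusted p = 0.00097 and 0.0033). Among 71 mitochondrial ribosomal protein genes 9 were higher and 5 lower, below the shares over all genes, and at most 2 in either direction without 1 of the arrays.

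**Figure D3:**
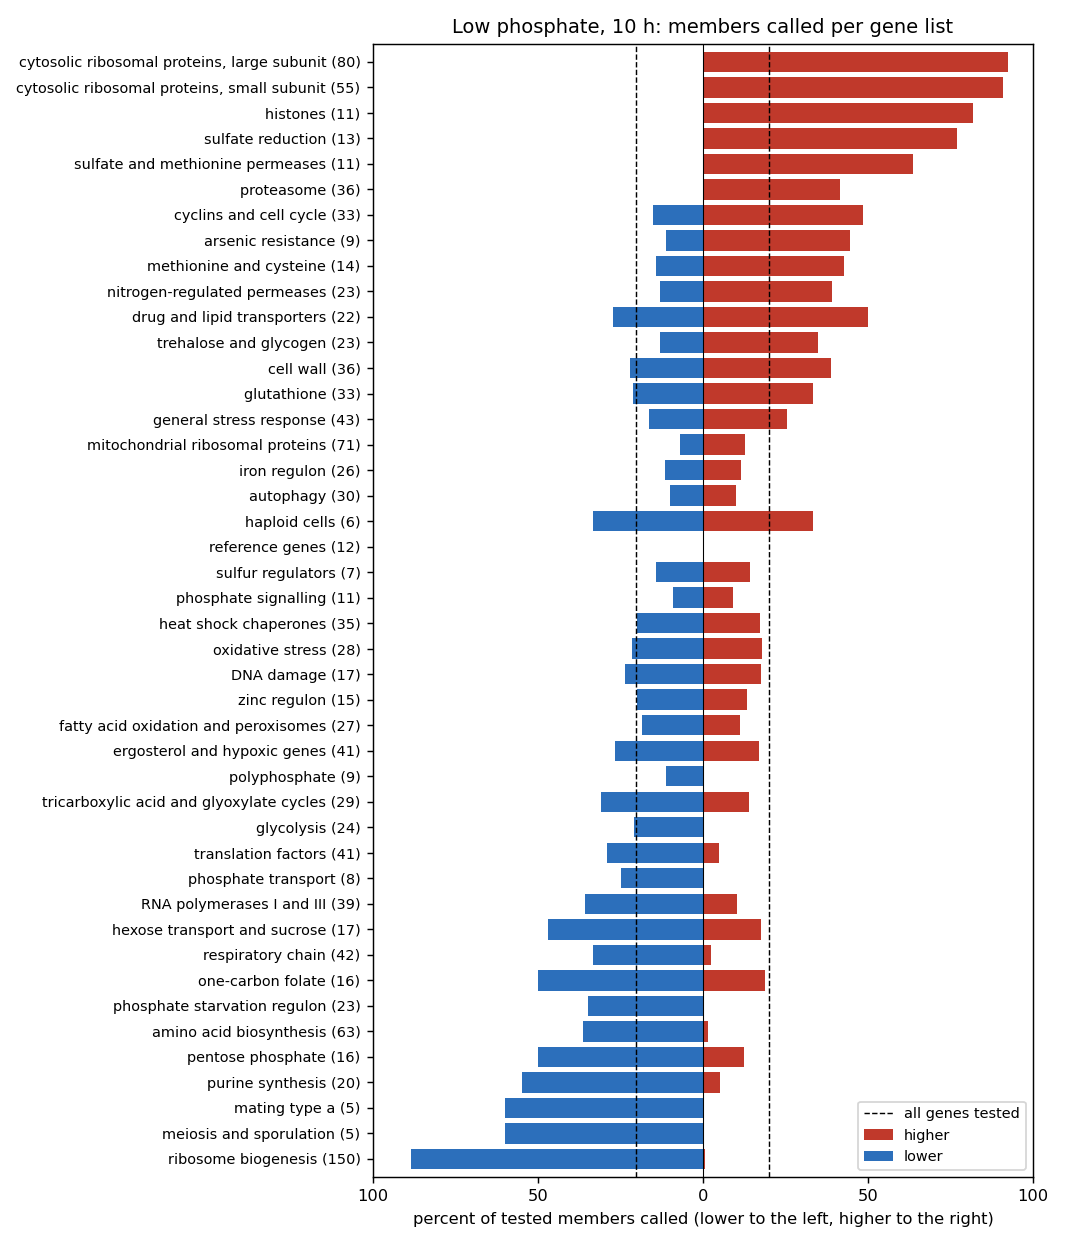
Shares of the tested members of each list of at least 5 tested genes that were called higher (to the right) or lower (to the left) with arsenate at 10 h, in percent; dashed lines mark the shares over all 5207 genes, 20.0% and 20.5%. The ribosomal protein lists reach furthest to the right and ribosome biogenesis furthest to the left.

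The genes that yeast switches on when phosphate runs short were near 0 or slightly lower at 10 h. None of 23 tested members of the starvation regulon was higher and 8 were lower, with a median of -0.11. That count fell to 1 without the first array and to 2 without the second or without centring. PHO84, the main high-affinity phosphate transporter, read 0.10 and -0.01 (mean 0.05, SE 0.08, adjusted p = 0.67), after 0.35 and 0.31 at 4 h and -1.35 and -1.10 at 8 h. Its ratio thus dipped at 8 h and was back near 0 at 10 h, a difference of 1.27 (adjusted p = 0.00031). PHO5, the secreted acid phosphatase, read -0.64 and -0.43 at 10 h; earlier it had been high at 4 h (1.19 and 0.93) and low at 8 h (-2.73 and -2.86). Its mean of -0.54 was called (adjusted p = 0.0059, and 0.067 without the first array), and its difference from 8 h was 2.26 (adjusted p = 8.17e-05).

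PHM8, a nucleotide phosphatase that frees phosphate from RNA, read -0.65 and -0.68 at 10 h (adjusted p = 0.0039) after a mean of -2.81 at 8 h. Across the regulon 22 of 23 members were higher at 10 h than at 8 h and 1 was lower, with a median difference of 1.10, whereas 21.6% of all genes were called higher. Of the remaining transporter genes named here, none was called at 10 h. PHO89, the sodium-coupled transporter, had a mean of -0.13 (adjusted p = 0.22), and the low-affinity transporters PHO87, PHO90 and PHO91 had means of -0.12, -0.14 and 0.22 (adjusted p = 0.22, 0.34 and 0.065). The arrays disagreed for PHO90, at 0.09 and -0.37, and without the first it was called lower (adjusted p = 0.047). Of the 8 genes of phosphate transport, 2 were called lower, GTR1 at -0.40 and SYG1 at -0.33, each at adjusted p above 0.05 without 1 of the arrays (0.065 without the second and 0.20 without the first). The regulator genes diverged: PHO4, the activator of the regulon, fell by 0.70 (-0.64 and -0.76, adjusted p = 0.0037), and PHO2, its partner, rose by 0.57 (0.55 and 0.60, adjusted p = 0.0015). These were the 2 called among 11 signalling genes, with PHO81 at -0.04 (adjusted p = 0.67) and SPL2, which lowers low-affinity uptake, at 0.07 (adjusted p = 0.69). Of 9 polyphosphate genes 1, VTC1, was called lower, at -0.26, an adjusted p of 0.13 without the first array. VTC3, a catalytic-complex partner, was at 0.15 (adjusted p = 0.21). On the single array in 1 mM phosphate PHO84 read 0.71, PHO5 0.66, PHO89 0.31 and PHM8 0.13, and 20 of 23 members of the regulon were above 0.

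General stress genes were near the median of all genes at 10 h, and far above their own ratios at 8 h. Of 43 tested, 11 were higher and 7 lower at 10 h, or 3 and 6 without the first array and 4 and 6 without the second. Between 8 h and 10 h, 38 were called higher and 1 lower, with a median difference of 1.14, beside 21.6% and 24.3% of all genes. HSP12, a membrane-protecting small heat shock protein, had ratios of -1.41 and -1.32 at 8 h and of -0.07 and 0.12 at 10 h (adjusted p = 0.87). CTT1, the cytosolic catalase, was at a mean of -1.75 at 8 h and of -0.04 at 10 h (adjusted p = 0.79). Those called lower at 10 h included SPI1, a cell wall protein of stationary phase, at -0.67, YGP1, a secreted glycoprotein, at -0.60, and DDR2, a multi-stress gene, at -0.58 (adjusted p at most 0.0033).

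Ratios of carbohydrate reserve genes were also higher at 10 h than at 8 h. Of 23 genes, 18 were called higher and none lower, beside 21.6% and 24.3% of all genes. Of 23 genes for trehalose and glycogen 8 were higher and 3 lower at 10 h, or 3 and 1 without the first array and 4 and 2 without the second. TSL1, a subunit of the trehalose synthase complex, read -1.99 and -2.20 at 8 h and 1.01 and 0.56 at 10 h (mean 0.79, adjusted p = 0.0044). PGM2, phosphoglucomutase, read -2.73 and -2.60 and then 0.49 and 0.60 (mean 0.54, adjusted p = 0.0019). Both therefore changed sign between 8 h and 10 h. UGP1, which makes UDP-glucose, was at 0.41 (adjusted p = 0.0045), and PIG2, a subunit tied to glycogen synthase regulation, at -0.59 (adjusted p = 0.0012).

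Chaperone genes split. Of 35, 6 were higher and 7 lower, close to the background shares, or 3 and 4 without the first array. CUR1, a sorting factor for misfolded proteins, rose to 0.98 and 1.09 (mean 1.04, adjusted p = 0.00043), and SSC1, the mitochondrial Hsp70, to 0.62 (adjusted p = 0.0014). HSP26, a small heat shock protein, read -0.91 and -0.86 (adjusted p = 0.00094) and SSA4, the stress-induced cytosolic Hsp70, -0.66 and -0.67 (adjusted p = 0.0015). HSP104, the disaggregase, was at 0.24 and -0.001 (adjusted p = 0.52). Over the list the median ratio was -0.31 at 4 h and -0.20 at 8 h. SSA4 had means of -2.96 at 4 h and -0.75 at 8 h, and HSP26 of -0.73 and -3.56, so that their lowest points fell at different times.

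Of 36 proteasome genes 15 were higher and none lower, with a median of 0.20, but 5 and 2 were higher without the first or the second array. RPN4, their activator, read -0.17 and 0.05 (adjusted p = 0.57). Among 28 oxidative stress genes 5 rose and 6 fell, or 3 and 3 without the first array. TRX1, a thioredoxin, was at 0.66 and GRE2, a methylglyoxal reductase, at 0.65, while SOD2, the mitochondrial superoxide dismutase, was at -0.66 and TRX3, the mitochondrial thioredoxin, at -0.53 (adjusted p at most 0.0016). Among 17 DNA damage genes 3 were higher and 4 lower, near the shares over all genes, and among 30 autophagy genes 3 and 3, below them. Without the first array those counts were 0 and 1, and 1 and 2.

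More purine synthesis and folate genes were lower than higher at 10 h. Of 20 purine synthesis genes 11 were lower and 1 higher, with 7 lower without the first array and 4 without the second. AAH1, the adenine deaminase that is turned off in quiescent cells, went from 0.35 and 0.33 at 4 h to 1.93 and 2.05 at 8 h, then down to -0.96 and -0.90 at 10 h (mean -0.93, SE 0.07, adjusted p = 0.00045). It was among the genes that dropped most between 8 h and 10 h, with a difference of -2.91 (adjusted p = 5.99e-05). GUA1, GMP synthase, was at -0.80 and ADE1, of the main purine pathway, at -0.73 (adjusted p at most 0.0012). In folate metabolism 8 of 16 genes were lower and 3 higher (5 and 2 without the first array), led by GCV1, a subunit of the glycine cleavage system, at a mean of -1.02 (adjusted p = 0.00043). MTD1, a cytosolic folate dehydrogenase, was at -0.97 and -0.98, and FOL3, dihydrofolate synthetase, at 0.53 (adjusted p = 0.0028).

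Of 63 amino acid biosynthesis genes 23 were lower and 1 higher, with a median of -0.09, and 39 were not called. Without the first array 7 (11.1%) were lower, close to the 10.8% of all genes in that fit, with 11 lower without the second and 8 without centring. HIS3 (mean -0.64) and ARO3 (-0.63), enzymes of histidine and aromatic amino acid synthesis, and GCN4 (-0.51), the activator of many of these genes, fell (adjusted p at most 0.0042). LEU1, of the leucine pathway, was the member that rose, to 0.66 (adjusted p = 0.00086). CHA1 (YCL064C), which breaks down serine and threonine, had the lowest mean among called genes with a value on both arrays, with -2.04 and -2.03 (SE 0.11, adjusted p = 0.00045), or 4.11-fold lower. It had been at -0.67 on the 1 array with a value at 4 h and at -0.60 and -0.16 at 8 h.

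In carbon metabolism, MAE1, the mitochondrial malic enzyme, read 1.51 and 1.61 at 8 h and -1.16 and -1.46 at 10 h (mean -1.31, adjusted p = 0.00043). PCK1, the gluconeogenic carboxykinase, was at -1.06 and -1.30 (adjusted p = 0.0014), IDP1, a mitochondrial isocitrate dehydrogenase, at -0.70, and ACO1, aconitase, at 0.72 (adjusted p at most 0.0013). Together 9 of 29 genes of the tricarboxylic acid and glyoxylate cycles were lower (31.0%) and 4 higher (13.8%), or 6 and 2 without the first array and 6 and 1 without the second. Of 16 pentose phosphate genes 8 were lower and 2 higher. RKI1, ribose-5-phosphate isomerase, was at -0.88 (adjusted p = 0.0044) after 1.64 at 8 h, and TKL1, transketolase, at -0.69, while GND1, the main 6-phosphogluconate dehydrogenase, was at 0.65 (adjusted p at most 0.0013).

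Respiratory chain genes were lower in 14 of 42 cases and higher in 1, with a median of -0.14, and lower in 6 or 7 without the first or second array. ATP1, an ATP synthase subunit, fell by 0.67, HAP4, the activator of respiratory genes, by 0.56, and QCR7, of complex III, by 0.52 (adjusted p at most 0.0029). Glycolysis had 5 of 24 lower (20.8%, close to the 20.5% of all genes) and none higher, or 1 lower without the first array, with TDH1 at -0.64 (adjusted p = 0.0014). Among 17 genes of hexose transport and sucrose use, 8 were lower and 3 higher, and 3 and 1 without the first array. HXT1, the low-affinity hexose carrier, was at 0.97 and 0.86, and HXT4 and HXT6, carriers of higher affinity, at means of -0.81 and -0.58 (adjusted p at most 0.0012). Fatty acid oxidation and peroxisome genes were higher in 3 and lower in 5 of 27 cases, and 7 of 41 ergosterol and hypoxic genes were higher and 11 lower. Without the first array the counts were 1 and 4, and 4 and 4.

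Histone genes and many cell cycle genes were higher. Of 11 histone genes 9 rose and none fell, with a median of 0.56, and 7 or 6 rose without the first or second array. HHO1, the linker histone, read 0.84 and 1.02 (mean 0.93, adjusted p = 0.00061), HHF2, a core histone, 0.87 and 0.73, HTZ1, a histone variant, 0.69 and 0.68, and HHT2, another core histone, 0.79 and 0.56. Compared with 8 h, 8 of the 11 were higher and none lower, beside 21.6% and 24.3% of all genes. Of 33 cyclin and cell cycle genes 16 were higher and 5 lower, or 13 and 1 without the first array. PCL1, a G1 cyclin of the Pho85 kinase, read 1.11 and 0.95 at 10 h (adjusted p = 0.00043) after -1.08 and -1.05 at 8 h. The mitotic cyclins CLB1 (1.03 and 0.84) and CLB2 (0.71 and 1.14) were also higher (adjusted p = 0.00059 and 0.0039).

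The cell wall mannoprotein gene CWP1 (YKL096W) was the fourth most increased gene, with 2.22 and 2.76 at 10 h (mean 2.49, SE 0.13, adjusted p = 0.00042), or 5.62-fold. On the 4 earlier arrays it lay between 0.38 and 0.73, well below both values at 10 h, and its differences were 1.88 from 8 h (adjusted p = 0.00045) and 2.04 from 4 h (adjusted p = 0.00072). Of 36 cell wall genes 14 (38.9%) were higher and 8 (22.2%) lower. KDX1, a kinase-like gene induced by wall stress, was at 0.84, GAS3, a glucanosyltransferase relative, at 0.75 and CHS1, a chitin synthase, at 0.75, while PIR3, a covalently bound wall protein, was at -1.09 and TIR3, of the cold-shock mannoproteins, at -0.82 (adjusted p at most 0.0015). Without the first array 8 wall genes were higher and 7 lower.

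Nitrogen-regulated permease genes were higher in 9 of 23 cases and lower in 3, or 6 and none without the first array. MEP2, the high-affinity ammonium permease, read -0.18 and -0.24 at 4 h, but 1.57 and 1.64 at 8 h, with 1.61 and 1.50 on the arrays at 10 h (adjusted p = 0.00025). GAP1, the general amino acid permease, had a mean of 1.10 (adjusted p = 0.00043). CAR1, which is on this list but encodes arginase and not a permease, had a mean of 0.78 (adjusted p = 0.0016). At 4 h CAR1 was at -1.55 on each array. All 3 were above 0 on each array at 8 h and 10 h. On the single array in 1 mM phosphate MEP2 read -0.18 and GAP1 -0.05. In the list of drug and lipid transporters, which also holds the nitroreductase-like gene FRM2, 11 of 22 genes were higher and 6 lower. Among the transporters, RSB1, which carries sphingoid bases, was at 1.25 and 0.99 and QDR2, a drug exporter, at a mean of 0.81 (adjusted p at most 0.00083).

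Metal regulons were near the background. Of 26 iron regulon genes 3 were higher and 3 lower (3 and 1 without the first array), and of 15 zinc regulon genes 2 were higher and 3 lower. ZPS1, a zinc-responsive wall protein, was at -1.14 and COT1, a vacuolar zinc and cobalt transporter, at 0.73 (adjusted p = 0.002 and 0.0009). The deposited values are ratios, so whether a marker was expressed at all cannot be read from them. Markers of cell type gave few values. Of 4 alpha-specific genes 2 were lower, including the agglutinin SAG1 at -1.04 and -1.09 (adjusted p = 0.00043), and of 5 a-specific genes 3 were lower. Only 2 of these 5 had a value on the second array at 10 h, so the 3 calls do not all rest on both arrays. Of 6 haploid genes 2 were higher and 2 lower, and of 5 meiosis genes 3 were lower and none higher. Without the second array those counts were 1 and 1, and 1 lower.

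**Figure D4:**
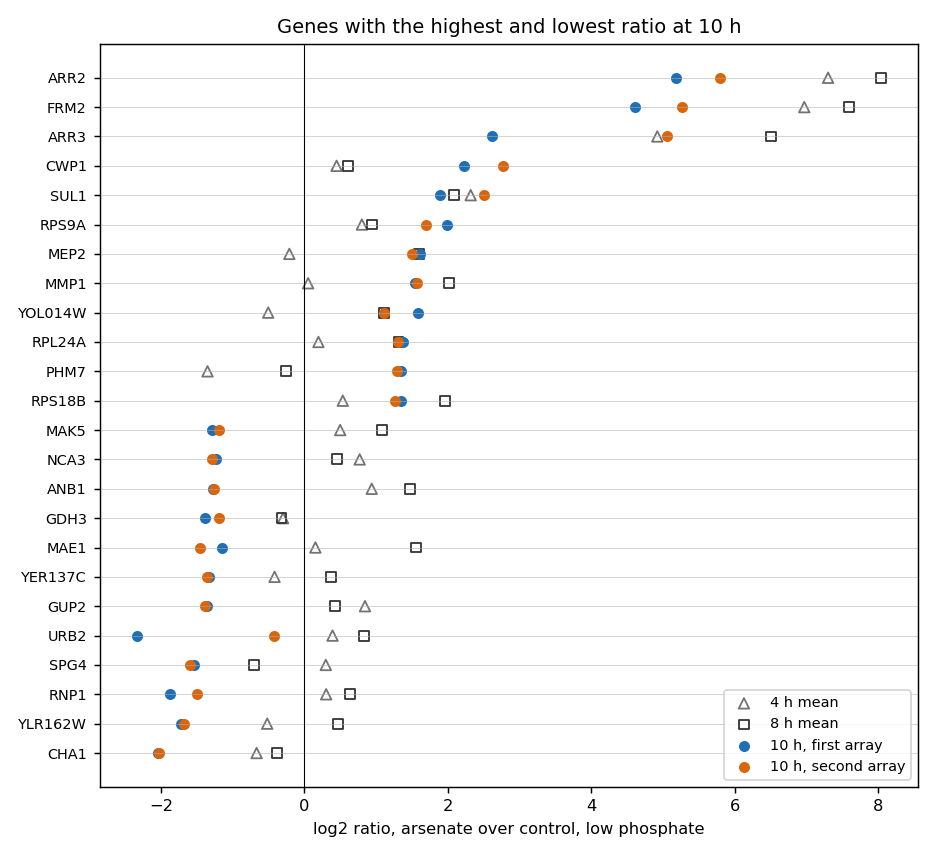
Centred log2 ratios (horizontal axis) of the 12 highest and 12 lowest genes called at 10 h, with separate points for the 2 arrays at 10 h and marks for the means at 8 h and 4 h. ARR2 and FRM2 lie below their own means at 8 h and 4 h, CWP1 lies above its own, and MAK5, ANB1 and MAE1 are below 0 at 10 h and above 0 earlier.

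Several of the lowest genes at 10 h belong to none of the groups above. RNP1, an RNA-binding protein gene, read -1.88 and -1.50 (mean -1.69, adjusted p = 0.00045) after a mean of 0.64 at 8 h. SPG4, a gene of stationary phase survival, was at -1.54 and -1.59 (adjusted p = 0.00043) and GDH3, a glutamate dehydrogenase, at -1.39 and -1.19 (adjusted p = 0.0011). GUP2, a membrane protein gene, was at -1.36 and -1.38 (adjusted p = 0.00083), and NCA3, of the SUN family, at -1.23 and -1.30 (adjusted p = 0.00045). On each array these 5 genes were at least 2-fold lower. Among the highest, PHM7 had a mean of 1.32, with adjusted p of 0.064 and 0.062 without the first and the second array. OSI1, an oxidative stress gene singled out after its value was seen, had a mean of -3.04 from 1 array at 10 h. The largest falls also held 2 genes of unknown function, YLR162W at -1.70 and YER137C at -1.35, and YOL014W rose to 1.34.

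The ratios at 10 h differed from those at 8 h for 2392 genes (45.9%), 1127 higher and 1265 lower, and from those at 4 h for 2202 (42.3%), 1147 higher and 1055 lower. Leaving out an array at 8 h reduced the first pair of counts to 680 and 920 or to 648 and 925. The arrays at 8 h had lower medians as deposited than those at 10 h. Without centring the median difference of all genes from 8 h was 0.22 in place of 0.02, and 775 genes were lower.

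**Figure D5:**
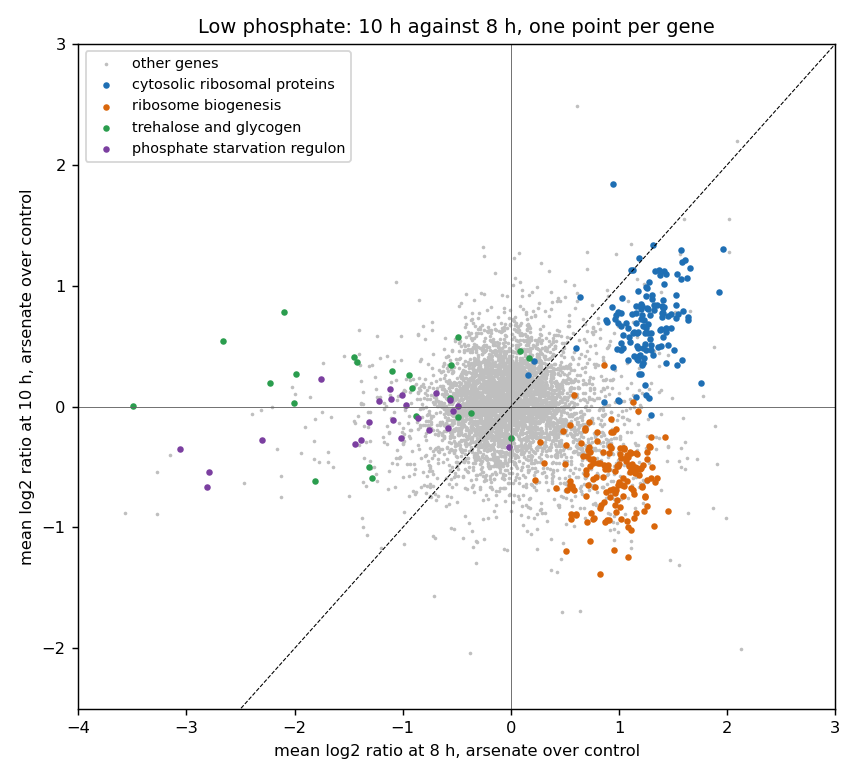
Mean centred log2 ratio at 8 h (horizontal axis) and at 10 h (vertical axis) for each gene in low phosphate, with ribosomal protein (blue), ribosome biogenesis (orange), trehalose and glycogen (green) and phosphate starvation (purple) genes coloured. Biogenesis genes lie above 0 at 8 h and mostly below 0 at 10 h, and most of the reserve carbohydrate and phosphate genes lie below 0 at 8 h and nearer 0 at 10 h; 4 genes (ARR2, ARR3, FRM2 and OSI1) lie outside the axes.

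The 8 genes that gained most from 8 h to 10 h by the naming rule were GPH1, PGM2, TSL1, HAB1, GND2, PHM6, HSP26 and GSY1. GPH1, glycogen phosphorylase, went from -3.52 and -3.46 at 8 h to 0.06 and -0.06 at 10 h, a difference of 3.49 (SE 0.10, adjusted p = 5.99e-05). It was thus strongly lower with arsenate at 8 h and level with the control at 10 h. PGM2 gained 3.21, TSL1 2.88, HAB1 2.75, GND2, a 6-phosphogluconate dehydrogenase, 2.73, PHM6, of the phosphate regulon, 2.71, HSP26 2.68 and GSY1, glycogen synthase, 2.43. Those that dropped most were AAH1 (-2.91), MAE1 (-2.87), ANB1 (-2.74), FRM2 (-2.66), ARR2 (-2.56) and RKI1 (-2.52), of which FRM2 and ARR2 stayed far above 0.

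Compared with 4 h, 19 of 35 chaperone genes were higher at 10 h and 3 lower, whereas 22.0% of all genes were called higher and 20.3% lower. HSP78, a mitochondrial disaggregase, went from -2.29 and -2.60 at 4 h to 0.35 and 0.17 at 10 h, a difference of 2.71 (adjusted p = 0.00026), and HSP42, a small heat shock protein, from a mean of -2.61 to -0.02. GRE2 moved from -2.04 and -1.87 to 0.71 and 0.59, and had already been at a mean of 0.76 at 8 h. PNS1, a choline transporter-like gene, went from -2.17 and -2.33 to 0.86 and 0.89, a difference of 3.13 (adjusted p = 0.0001). These 4 genes were below the control by more than 3-fold at 4 h, and at 10 h 2 of them, GRE2 and PNS1, were called higher.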

How the data were processed

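Each array compared RNA of an arsenate culture (Cy5) with RNA of its control (Cy3). The deposited values are log2 ratios per spot, where base 2 was assumed because neither labels nor headers give the base. The authors' normalization used spots with a flag value of 0, per the labels, and its method is not given in the sources used here. Spots with no value were left out. Spots of a gene were averaged through the platform's annotation, each array was centred on its gene median, and a gene entered the fit with values at all 3 times. The depth is set by the number of arrays, and signals over background are not known, so no detection limit could be applied. limma 3.58.1 in R 4.3.3 (lmFit and eBayes) was fitted to the 6 low-phosphate arrays, whose spread was estimated jointly (3 residual degrees of freedom). It gave the mean at 10 h against 0 and the differences from 8 h and 4 h, two-sided, with Benjamini-Hochberg adjustment over 5207 genes and a threshold of 0.05. Of these, 5055 genes had both arrays at 10 h and 152 had 1, and the mean then rests on that array. The high-phosphate arrays used another array design and were normalized apart, so their values stand beside the others with no test.

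The gene lists (45 in all) and the members described were chosen with earlier results of these data known. Genes were named by this rule: the 12 highest and 12 lowest called genes with both arrays of the same sign, up to 4 called members of each list in each direction, a set of arsenic, sulfur, phosphate and stress genes, and the 8 largest differences in each direction from 8 h and from 4 h. The fit was also run on simulated data with independent noise for each gene and array. That noise held no effect shared by the genes of an array or a culture. The run therefore cannot show whether the calls in the real data are sound. Alternatives were tried for centring, scaling, the spots of a gene, array weights, the arrays in the fit and a replicate block. No sequences are shown, and coordinates are not given because the genome build of the files is not given in the sources used here.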

Additional observations from a re-analysis of the deposited data

Results flagged for a closer look

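The ratio at 10 h differed from that at 8 h for 2392 genes and from that at 4 h for 2202 genes by the limma fit over the low-phosphate arrays. The genes below are those with the largest differences by the naming rule and a few described in the report, each at an adjusted p under 0.05 for the difference itself. Between 8 h and 10 h the differences were -2.91 for AAH1, -2.87 for MAE1, -2.74 for ANB1, -2.66 for FRM2, -2.56 for ARR2, -2.52 for RKI1, -2.38 for SHM2, a serine hydroxymethyltransferase, -2.33 for RNP1 and -2.33 for MAK5. In the other direction they were 2.43 for GSY1, 2.68 for HSP26, 2.71 for PHM6, 2.73 for GND2, 2.75 for HAB1, 2.88 for TSL1, 3.21 for PGM2 and 3.49 for GPH1. CWP1 differed by 1.88 and RPS9A by 0.89. GND2 and HAB1 were both near -3 at 8 h, with HAB1 at -3.48 and -2.83 and GND2 at -3.25 and -3.30.

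From 4 h to 10 h the differences were -2.63 for BSC1, -2.42 for RGM1, -2.26 for CDD1, cytidine deaminase, -2.22 for GUP2, -2.21 for ANB1, -2.04 for FRM2, -1.99 for RNP1, -1.94 for MCH5, a riboflavin transporter, and -1.74 for MAK5. They were 2.59 for HSP42, 2.60 for RSB1, 2.60 for GRE2, 2.67 for PHM7, 2.71 for HSP78, 2.88 for BTN2, a sorting protein, 3.13 for PNS1 and 3.38 for YNL194C, with 2.04 for CWP1 and 1.04 for RPS9A. YNL194C and CDD1 rest on unlike arrays at 4 h: YNL194C read -1.83 and -4.58 there, and CDD1 0.68 and 2.02.

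Values outside the test were also large. Of 1605 spots with no gene name, 210 had values on both arrays at 10 h, of which 2 were at least 2-fold higher and 10 at least 2-fold lower on both. Among named genes left out of the test for want of values at 4 h or 8 h, 0 were at least 2-fold higher and 11 at least 2-fold lower on both arrays at 10 h. The lowest of these was DAK2, a dihydroxyacetone kinase, at -3.78 and -3.67, followed by SFC1, a mitochondrial succinate and fumarate carrier, at -1.41 and -1.94. These 2 genes were named after their values were seen.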

How the results depend on the processing

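None of the gene results that passed the test changed direction under an alternative. Of those that did not pass, 15 changed sign (such as PHO84, PHO90, SPL2, RPN4, HSP12, and the time differences of SUL1 and that of ARR3 from 4 h). None of the 15 was called in the main fit or under an alternative that turned its sign. PHO90 and those differences of SUL1 and ARR3 were called under another alternative that kept the sign. Of 44 list medians 9 also changed sign, all within 0.070 of 0. Leaving out 1 array at a time gave 1055 to 2295 genes called at 10 h (506 to 1162 higher, 549 to 1144 lower), 1573 to 2603 differing from 8 h (648 to 1263 higher) and 1588 to 1922 differing from 4 h. The low ends come from fits without an array at 10 h, or, for differences from 8 h, without an array at 8 h. Without centring, 667 genes were lower at 10 h and 775 lower than at 8 h; with genes on at least 2 spots, 702 were lower than at 4 h. Lists of at least 5 tested genes with 50% or more called in 1 direction numbered 12, and 5 to 14 when 1 array was left out. Of 251 named genes called at 10 h, 139 kept the call under each alternative that gave a value, 112 lost it without 1 of the arrays at 10 h, and 38 lost it without centring. Numbers 1 and 2 recur at each time, and nothing in the labels ties them, and with 2 numbers they were not taken as pairs: deviations of same-numbered arrays correlated at 0.11 (4 h and 8 h), 0.14 (4 h and 10 h) and 0.21 (8 h and 10 h) over 4747 genes. With the replicate number as a block 1155 genes were higher and 1147 lower at 10 h (2302 in all), 2554 differed from 8 h and 2372 from 4 h. With 2 arrays a group and no spot signals, small ratios of dim probes could not be told from noise.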
